A study of Mustela putorius furo and Mus musculus with 4 samples.

Results

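Matrix metalloproteinases (MMPs), their tissue inhibitors (TIMPs) and the related secreted protease ADAMTS1 were compared between cultured ferret and mouse astrocytes. The set holds 10 genes, Mmp2, Mmp9, Mmp11, Mmp14, Mmp15, Timp1, Timp2, Timp3, Timp4 and Adamts1, chosen by name, out of 13373 gene symbols present in both species. All 10 were found in both species with a single value each. Libraries came from primary astrocytes of the cerebral cortex, 2 from sable ferrets at postnatal day 1 and 2 from ICR mice at postnatal day 1 to 3. The cells of both species had grown as mixed glia in serum for 14 days, were shaken, replated and moved to serum-free medium containing heparin-binding EGF-like growth factor before RNA was taken. Each mouse flask pooled the cortices of several pups, whereas the cells of a single ferret pup were spread over several flasks. The sources do not say whether the duplicate libraries of a species came from separate cultures, so p-values measure the spread between these 4 libraries, which may be technical. Levels are FPKM, fragment counts scaled by exon length and by sequencing depth, so that genes of one library can be compared per length.

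MMPs are zinc enzymes that cut collagens, laminins and proteoglycans of the extracellular matrix, and most are made as inactive precursors. TIMPs bind the active site and block it, and TIMP2 has a second role, since together with the membrane protease MMP14 it presents the precursor of MMP2 for activation. In the brain these proteins take part in remodelling of the basement membrane, in cell migration and process outgrowth, and in opening of the blood-brain barrier, and astrocytes are a known source of several of them.

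The site that TIMPs block is shared by all 6 proteases of the set, and it is shown here as the coding sequence of the mouse transcripts, because it is the feature that joins enzymes whose levels differed in opposite directions between the species. Each line gives 33 bases from 5′ to 3′ on the coding strand (GENCODE, GRCm38), with the codons of the 3 zinc-binding histidines in capitals.
Mmp2: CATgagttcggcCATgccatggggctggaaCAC
Mmp9: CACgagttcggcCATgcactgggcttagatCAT
Mmp11: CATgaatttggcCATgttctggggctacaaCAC
Mmp14: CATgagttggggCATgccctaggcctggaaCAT
Mmp15: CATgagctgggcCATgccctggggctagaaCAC
Adamts1: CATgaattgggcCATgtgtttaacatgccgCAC
The site occurred once in each coding sequence, and the 5 MMPs carried it within a single exon. It lies in exon 8 of Mmp2 (chr8:92839279-92839311, plus strand), exon 8 of Mmp9 (chr2:164951133-164951165, plus strand), exon 5 of Mmp11 (chr10:75926931-75926963, minus strand), exon 5 of Mmp14 (chr14:54437627-54437659, plus strand) and exon 5 of Mmp15 (chr8:95368585-95368617, plus strand). In Adamts1 it runs from exon 3 into exon 4 (chr16:85799191-85799545, minus strand, intron included). Against Mmp2, 29 of the 33 letters were the same in Mmp15, 27 in Mmp14, 26 in Mmp11, 25 in Mmp9 and 20 in Adamts1. The 3 capital codons mark histidine in all 6 genes.

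The label of the cells was checked against markers. Of 10 astrocyte markers, 0 stood under 1 FPKM in both mouse libraries and 1 in both ferret libraries, the glutamate transporter Slc1a2 (0.133 and 0.178 FPKM, against 47.1 and 51.8 in the mouse). Gfap, the intermediate filament of astrocytes, stood at 1481 and 1522 FPKM in the ferret and at 1429 and 1546 in the mouse. By log2(FPKM + 1), 7 of the 10 were lower in the ferret and 3 higher. Their median difference, ferret minus mouse, was -1.25, against -0.35 over the genes tested below. Aqp4 stood at 24.8 and 21.8 FPKM in the ferret and at 201.5 and 209.9 in the mouse, and S100b at 247 and 244 against 57.35 and 63.08. Markers of other cells were present too. Over 16 microglial markers the sum was 77.1 and 77.2 FPKM in the ferret and 958 and 930.5 in the mouse, with Cx3cr1 listed at 0 in both ferret libraries. Over 12 meningeal fibroblast markers it was 129 and 113 against 1827 and 1811, and over 8 endothelial markers 0.793 and 0.792 against 26.0 and 26.3. Cdh5 alone gave 21.96 and 22.46 of the mouse endothelial sums and was listed at 0 in both ferret libraries, as were Pecam1 and Tek, while Pecam1 stood at 0.041 and 0.031 in the mouse and Cldn5 was listed at 0 in both mouse libraries. The sums of oligodendrocyte lineage markers (9 genes, 169 and 188 against 69.0 and 69.0) and neuronal markers (5 genes, 12.0 and 12.6 against 1.69 and 1.96) were on the other side. Of 8 oligodendrocyte genes with a mean of at least 1 FPKM in either species, 6 were higher in the ferret and 2 lower (Olig2 and Cspg4). Cnp alone gave 79.95 and 92.03 of the ferret oligodendrocyte sums. All 3 neuronal genes with such a mean were higher in the ferret, 2 of them having reached it in the ferret only. Syt1 (5.11 and 4.94) and Nefl (4.42 and 5.68) gave most of the ferret neuronal sums. Rbfox3, which stayed under that mean, went the other way, at 0 and 0.035 FPKM in the ferret against 0.067 and 0.084 in the mouse. The 7 mural cell markers gave 21.1 and 20.03 against 35.3 and 33.3. Kcnj8 gave 11.75 and 11.32 of the ferret mural sums, against 0.014 and 0.023 in the mouse, whereas Pdgfrb was lower in the ferret, at 4.57 and 4.39 against 24.5 and 22.7. In RNA from whole cultures, fewer cells of a type and less RNA per cell cannot be told apart, and the part of these cells in the differences of the proteases and inhibitors was not tested. Species, gene annotation and culture cannot be told apart either.

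The species were compared with limma on log2(FPKM + 1) over 10204 genes, those whose mean reached 1 FPKM in the ferret or in the mouse. Log2 differences are ferret minus mouse, and a call required a size above 1 and a p, adjusted by Benjamini-Hochberg, below 0.05. Of the 10 genes, 2 were called higher in ferret astrocytes (Mmp2 and Mmp9), 5 were called lower (Mmp11, Mmp14, Timp2, Timp4 and Adamts1) and 3 were not called (Mmp15, Timp1 and Timp3). Over all genes tested, 13.1% were called higher and 30.1% lower, which became 19.3% and 21.7% with FPKM rescaled to a common library sum and 20.4% and 20.4% after quantile normalization. The median log2 difference was -0.69 for the set and -0.35 for all genes. The adjusted p was under 0.05 for all 10 genes, as it was for 88.6% of all genes. This did not hold in every setting. With no filter on low values the limma adjusted p of Timp1 was 0.102. That of Mmp15 was 0.326 with rescaled FPKM and 0.105 after quantile normalization. The ferret and mouse libraries did not overlap for any of the 10, as was the case for 94.1% of all genes. Mmp9 and Timp4 passed the filter on low values through one species only, so that a difference was built into their entry. For a single gene, the smallest two-sided p that an exact permutation test can give with 2 libraries a species is 0.333.

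**Figure D1:**
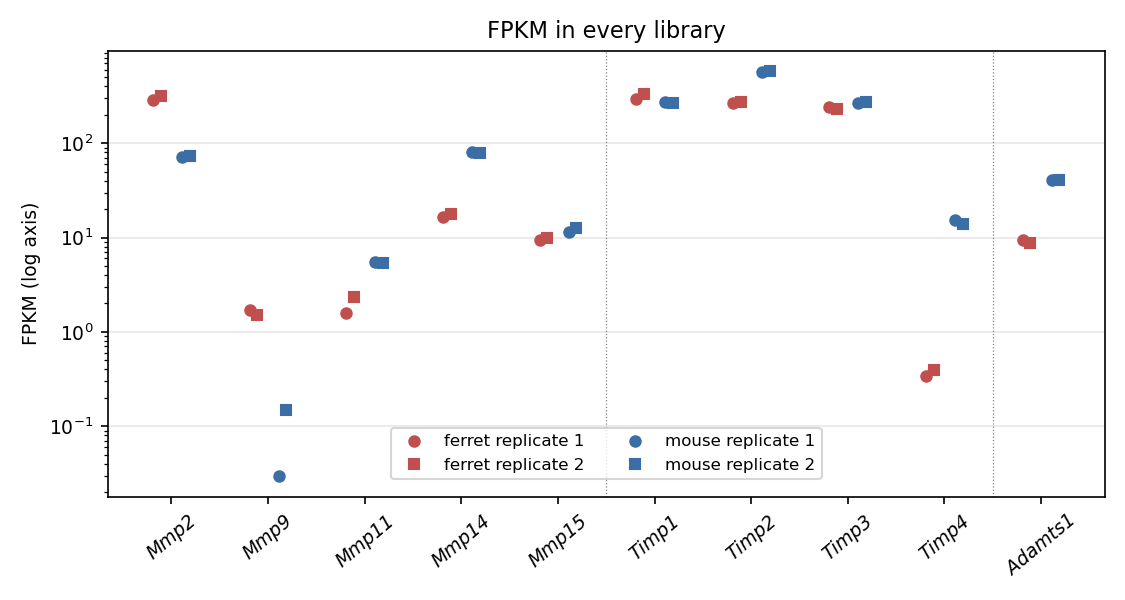
FPKM on a log axis for each of the 10 genes in every library, with ferret libraries in red, mouse libraries in blue, circles for replicate 1 and squares for replicate 2. Duplicates lie close together except for Mmp9 in the mouse (0.0293 and 0.149) and Mmp11 in the ferret (1.57 and 2.35), and no gene has overlapping species.

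The secreted gelatinase Mmp2 was the protease of the set with the highest level in ferret astrocytes. FPKM values were 284 and 319.8 in the 2 ferret libraries, against 71.6 and 72.9 in the 2 mouse ones. Both ferret values were far above both mouse values, and the means of 302 ± 25.5 and 72.3 ± 0.907 (SD, n = 2 each) differed 4.175-fold. On the log2(FPKM + 1) scale the difference was 2.04 (SE, standard error, 0.068, limma adjusted p = 1.85e-09). Ranked by FPKM within a library, which does not depend on scaling between libraries, Mmp2 took positions 81 and 76 of the 10204 genes in ferret astrocytes and positions 767 and 773 in mouse astrocytes. The mouse gene lies on chromosome 8 (GRCm38) at 92827291 to 92853420 on the plus strand and has 14 exonic regions.

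Mmp9, the second gelatinase, which is known for its induction in inflamed tissue, was low in both species. It had 1.725 and 1.497 FPKM in the ferret and 0.0293 and 0.149 in the mouse. Both ferret values lay above both mouse values. The gene was called higher in ferret astrocytes with a log2 difference of 1.26 (SE 0.089, limma adjusted p = 3.92e-07). The size depends on the pseudocount and came to 3.25 with one of 0.1. At positions 8568 and 8722 of 10204, Mmp9 belonged to the lower part of the ferret ranking, and the number of reads behind such values was not analysed here. The mouse gene lies on the plus strand of chromosome 2, from 164940780 to 164955850.

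The membrane-anchored proteases did not move together. Mmp14, which cleaves collagen at the cell surface and activates the precursor of MMP2, had 16.4 and 17.8 FPKM in the ferret and 81.2 and 79.2 in the mouse. Both mouse values were far above both ferret values, and the mouse mean was 4.695 times the ferret mean. This was a log2 difference of -2.17 (SE 0.063, limma adjusted p = 7.35e-10), the most negative among the proteases of the set. Mmp15, a membrane protease of the same subgroup, had 9.46 and 9.91 FPKM in the ferret and 11.3 and 12.7 in the mouse, a log2 difference of -0.29 (SE 0.076, limma adjusted p = 0.00523) that did not reach the size required for a call. The sign of this small difference depended on the scaling. It was 0.07 with FPKM rescaled to a common library sum and 0.14 after quantile normalization. Within a library, Mmp14 stood at 1.73 and 1.80 times the level of Mmp15 in ferret astrocytes and at 7.16 and 6.21 times in mouse astrocytes. Mmp14 lies on chromosome 14 from 54431612 to 54445364 and Mmp15 on chromosome 8 from 95352268 to 95375080, both on the plus strand.

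Mmp11, a secreted protease that is activated inside the cell by furin, had 1.57 and 2.35 FPKM in the ferret and 5.56 and 5.40 in the mouse. On the log2(FPKM + 1) scale its ferret duplicates were farther apart than the duplicates of any other gene of the set in either species, but both lay below the mouse values. With a log2 difference of -1.14 (SE 0.116, limma adjusted p = 6.66e-06) Mmp11 was called lower in ferret astrocytes. The call was lost without ferret replicate 1 (log2 difference -0.95), after rescaling (-0.85) and after quantile normalization (-0.73), all on the side of lower values in the ferret. The mouse gene, on the minus strand of chromosome 10, from 75923222 to 75936496, shares 155 exonic bases (5.58% of its exonic length) with Chchd10 on the opposite strand. Chchd10 had 80.3 and 94.3 FPKM in the mouse and 2.41 and 2.91 in the ferret libraries. Libraries were made with a stranded kit, but the strand setting of the quantification is not given in the sources used here, and the part of these shared bases in the value of Mmp11 was not tested.

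Timp1, Timp2 and Timp3 were among the most abundant transcripts of both species, each within the highest 1.31% of the 10204 genes in every library. Timp1, a soluble inhibitor that is known to rise in reactive astrocytes, had 292 and 334 FPKM in the ferret and 271 and 267 in the mouse. Both ferret values lay above both mouse values, but the difference was small. Its log2 difference of 0.22 (SE 0.073, 95% interval 0.05 to 0.38, limma adjusted p = 0.0185) was not called. Under rescaling and quantile normalization it was 0.61 and 0.58, and it was not called there either. Mouse Timp1 lies on the X chromosome from 20870166 to 20874735 on the plus strand.

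Timp2, which inhibits MMPs and takes part in the activation of MMP2, was the highest of the 4 inhibitors in the mouse. It had 265.5 and 272.5 FPKM in the ferret and 575 and 582 in the mouse, so that mouse astrocytes held 2.15 times the ferret level. This gave a log2 difference of -1.10 (SE 0.058, limma adjusted p = 4.46e-08). This value lies close to the size required for a call, and with FPKM rescaled or quantile normalized it was -0.71 and -0.76 and no longer called. Its position in the ranking was 88 and 91 in the ferret and 39 and 41 in the mouse. Mouse Timp2 lies on the minus strand of chromosome 11, from 118301069 to 118355740.

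Timp3, which binds to the matrix and also inhibits proteases of the ADAM and ADAMTS families, differed little between the species. It had 241 and 231 FPKM in the ferret and 269 and 276 in the mouse, and both ferret values lay below both mouse values. The log2 difference of -0.21 (SE 0.058, 95% interval -0.34 to -0.07, limma adjusted p = 0.00757) was not called and changed sign with the scaling, to 0.18 both with FPKM rescaled to a common library sum and after quantile normalization. Mouse Timp3 lies on the plus strand of chromosome 10, from 86300372 to 86349506.

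Timp4, an inhibitor with a more restricted tissue pattern that includes the brain, showed the largest difference of the set. FPKM values were 0.338 and 0.396 in the 2 ferret libraries, against 15.3 and 13.9 in the 2 mouse ones. Both ferret libraries lay far below both mouse libraries. The mouse mean of 14.6 ± 0.940 was 39.8 times the ferret mean of 0.367 ± 0.041 (SD, n = 2 each). On the log2(FPKM + 1) scale, which understates the change of low genes, the difference was -3.51 (SE 0.080, limma adjusted p = 1.68e-10), and with a pseudocount of 0.1 it was -4.98. The gene was called lower in ferret astrocytes under every scaling that was tried. Mouse Timp4 lies on the minus strand of chromosome 6, from 115241892 to 115252205.

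In the mouse annotation 3 of the 4 TIMP genes lie inside a synapsin gene on the opposite strand, an arrangement long known for this family. Timp1 shares no exonic base with Syn1. Timp3 shares 1733 exonic bases (21.3% of its exonic length) with Syn3, and Timp4 shares 90 (1.53%) with Syn2. The host genes, which encode proteins of synaptic vesicles, were low. Syn1 had 2.95 and 2.85 FPKM in the ferret and 2.33 and 2.38 in the mouse, and Syn2 had 2.16 and 2.07 against 4.74 and 4.82. Syn3 had 0.215 and 0.228 FPKM in the mouse and no ferret value under that symbol. The log2 differences of Syn1 and Syn2 were 0.22 and -0.89, and neither was called.

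Adamts1, a secreted protease with thrombospondin repeats that cleaves aggrecan and versican, was lower in ferret astrocytes. It had 9.39 and 8.81 FPKM in the ferret and 40.5 and 40.3 in the mouse. The duplicates were close in both species, and the mouse mean of 40.4 ± 0.152 was 4.44 times the ferret mean of 9.10 ± 0.405 (SD, n = 2 each). This gave a log2 difference of -2.04 (SE 0.063, limma adjusted p = 1.10e-09). It remained called at -1.67 with rescaled FPKM and at -1.63 after quantile normalization. The mouse gene lies on the minus strand of chromosome 16, from 85793827 to 85803113.

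**Figure D2:**
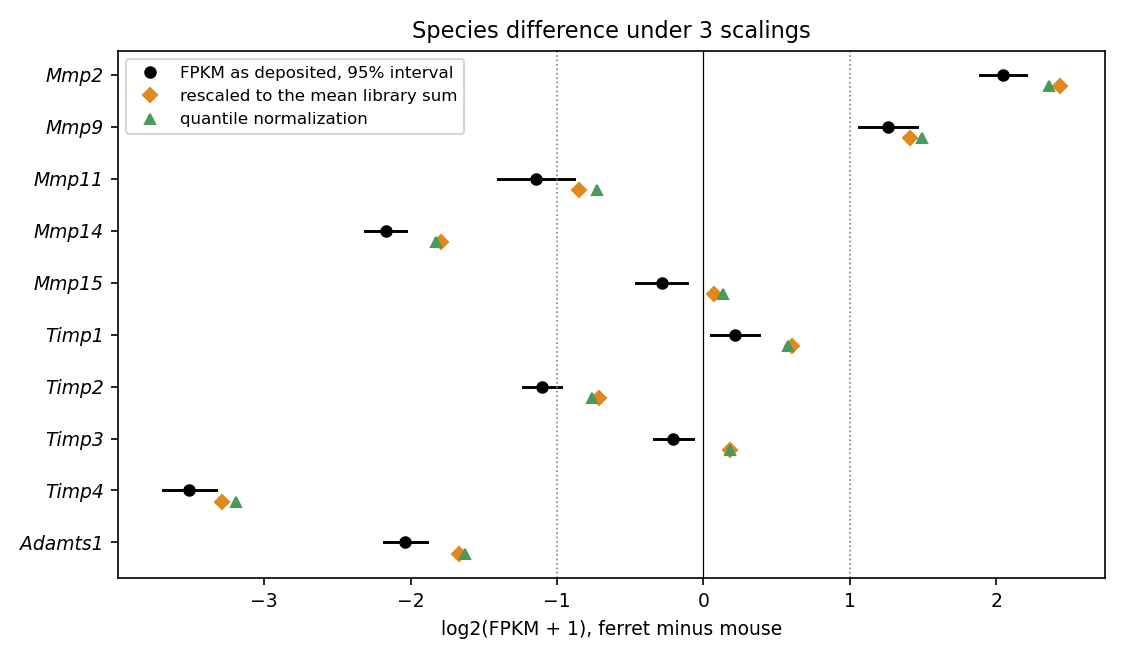
Difference of log2(FPKM + 1), ferret minus mouse, for each gene, as deposited (black, with the 95% interval from limma), with FPKM rescaled to a common library sum (orange) and after quantile normalization (green). Dotted lines mark the size required for a call. Mmp2, Mmp9, Mmp14, Timp4 and Adamts1 stay beyond them under all 3 scalings, Mmp11 and Timp2 move inside, and Mmp15 and Timp3 cross 0.

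The balance between the genes was then described within each library, where the scaling between libraries cancels. These ratios still rest on a separate gene model in each species, and they are sums over genes chosen by name, so they carry no test. The 4 TIMPs summed to 798 and 838 FPKM in the ferret and to 1130 and 1138 FPKM in the mouse, and the 5 MMPs to 313 and 351 against 169.8 and 170.4. The TIMP sum was therefore 2.55 and 2.38 times the MMP sum in ferret astrocytes and 6.66 and 6.68 times in mouse astrocytes. This lower ratio in the ferret came with a different composition of the MMP sum. Mmp2 alone made up 90.7% and 91.0% of it in the ferret and 42.2% and 42.8% in the mouse libraries, where Mmp14 made up 47.8% and 46.5%. In ferret astrocytes Mmp14 held 5.23% and 5.06%. The MMP sum leaves out the 13 other MMPs with a value in both species, so these ratios and shares hold for the 5 named MMPs only. The MMPs left out summed to 22.8 and 27.3 FPKM in the ferret and to 54.25 and 52.9 in the mouse.

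The TIMP sum was spread more evenly in the ferret. Timp1, Timp2 and Timp3 took 38.2%, 32.9% and 28.9% of it on average in ferret astrocytes and 23.7%, 51.0% and 24.0% in mouse astrocytes, while Timp4 took 0.045% and 1.29%. Among the genes around MMP2 activation, the ratio of Mmp2 to Mmp14 was 17.3 and 18.0 in the ferret and 0.882 and 0.921 in the mouse. The ratio of Mmp2 to Timp2 was 1.07 and 1.17 against 0.124 and 0.125, and that of Timp2 to Mmp14 was 16.2 and 15.3 against 7.08 and 7.35. Timp3 exceeded Adamts1, one of the proteases it inhibits, 25.7-fold and 26.2-fold in the ferret and 6.63-fold and 6.84-fold in the mouse. For each of these ratios the duplicates lay close together and the species did not overlap.

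**Figure D3:**
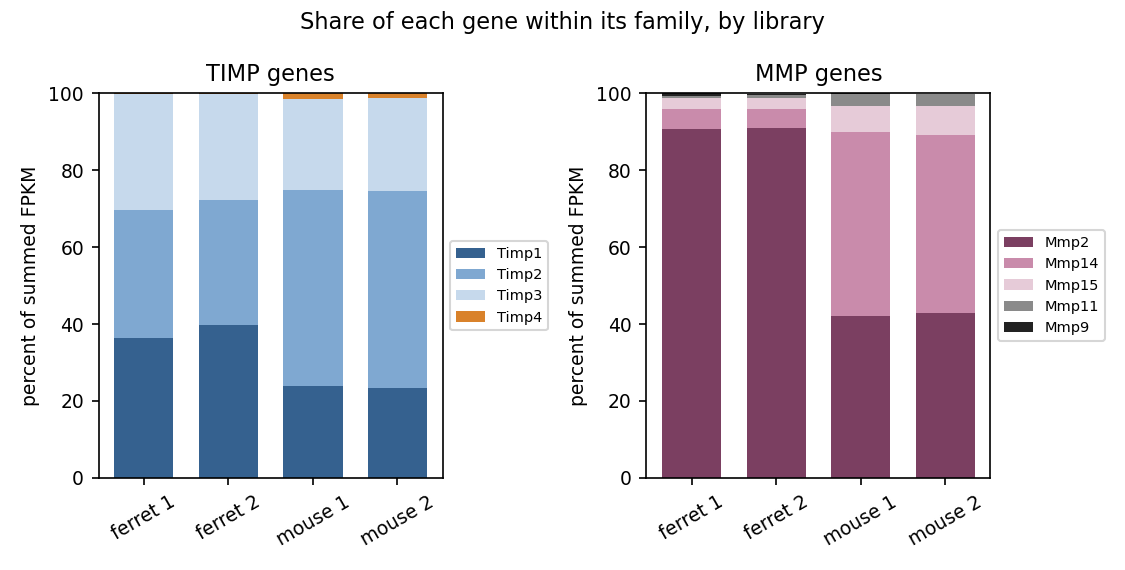
Stacked bars of the percent of summed FPKM that each gene holds within the 4 TIMPs (left) and within the 5 MMPs (right), for each of the 4 libraries. Mmp2 fills 90.7% and 91.0% of the ferret MMP bars, and Mmp14 and Mmp2 share most of the mouse bars. Timp2 fills 50.9% and 51.1% of the mouse TIMP bars.

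Other genes of the system were read from lists chosen by function. Of 17 other MMPs, 13 had a value in both species and 6 passed the filter, 4 of them through one species only. Among these 6, 1 was called higher and 3 lower in ferret astrocytes, and the median log2 difference was -0.96. All genes tested gave 13.1% higher, 30.1% lower and a median of -0.35. Mmp24, a membrane protease known from the nervous system, was the one called higher, at 2.52 and 2.98 FPKM in the ferret and 0.790 and 0.795 in the mouse (log2 difference 1.06, limma adjusted p = 1.10e-06). It passed the filter through the ferret only, so that a difference was built into its entry. The call was lost without ferret replicate 2. Mmp12, the elastase of macrophages, was called lower, at 0 and 0.045 FPKM in the ferret, against 15.35 and 12.96 in the mouse (log2 difference -3.89). Of the 16 microglial markers, 15 were called lower as well, but 12 of the 16, like Mmp12 itself, passed the filter through the mouse only, where they were high. Mmp28 stood at 0.442 and 0.518 FPKM against 6.58 and 6.96, and Mmp16, a membrane protease, at 2.12 and 2.14 against 10.0 and 9.84. Mmp28 too passed the filter through the mouse only. Mmp19 was not called, at 16.1 and 20.2 FPKM against 19.05 and 20.1 (log2 difference -0.11, limma adjusted p = 0.306), and the libraries of the species overlapped. It was chosen after its values were seen. Some MMPs had a value under their symbol in a single species and were not compared, since genes were matched by symbol. Names that may stand for the same gene, such as MMP23B and Mmp23, were not joined. MMP1 had 6.46 and 8.03 FPKM and MMP23B had 2.52 and 4.04 in the ferret libraries. In the mouse libraries Mmp3 had 2.35 and 2.69, Mmp10 had 0.1496 and 0.1405, Mmp1a had 0.0158 and 0.0132 and Mmp23 had 11.8 and 11.2 FPKM.

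The other ADAMTS genes fell on both sides. All 18 other members had a value in both species and 14 passed the filter, 8 of them through one species only. Of the 14, 4 were called higher and 4 lower in ferret astrocytes, and the median log2 difference was 0.01. The shares over all genes tested were 13.1% higher and 30.1% lower. Adamts15 (8.74 and 9.91 FPKM in the ferret, against 1.88 and 1.78 in the mouse) and Adamts4 (3.97 and 4.38 against 0.974 and 1.00), both of which cleave aggrecan and related proteoglycans, were called higher, with log2 differences of 1.86 and 1.38. Adamts13, which cleaves von Willebrand factor, had 1.74 and 1.58 FPKM in the ferret, against 0 and 0.00567 in the mouse. Adamts5, another enzyme that cleaves aggrecan, was lower, at 2.58 and 2.60 FPKM against 20.3 and 19.8, a log2 difference of -2.55 (limma adjusted p = 4.65e-10). Adamts10 and Adamts9 were called lower too, with log2 differences of -2.33 and -1.82. Adamts4 and Adamts13 passed the filter through the ferret only, and Adamts9 and Adamts10 through the mouse only. A difference was thus built into the entry of these genes. Of the named genes whose enzymes cleave aggrecan, Adamts15, Adamts5 and Adamts1 passed through both species. Adamts15 was called higher in the ferret, whereas Adamts5 and Adamts1 were called lower. The genes of this list were named for the size of their differences, and Adamts1 belongs to the set.

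Of 9 ADAM sheddases, which release proteins from the cell surface, 7 were tested, with 0 called higher and 2 called lower in ferret astrocytes by limma. Calls over all genes were 13.1% higher and 30.1% lower. All 7 had an adjusted (and so also an unadjusted) p under 0.05 with no requirement on size, 1 higher and 6 lower, as did 88.6% of all genes, so this count is no result about the sheddases. The called genes were Adam33, at 0.256 and 0.2195 FPKM in the ferret, against 5.62 and 3.85 in the mouse, and Adam9, at 31.9 and 30.05 against 65.7 and 67.7. Adam33 passed the filter through the mouse only, so that a difference was built into its entry. The call of Adam9 was lost under both other scalings.

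Among 12 genes listed for the activation, clearance or control of proteases, 9 were tested. Of these, 1 was called higher and 6 lower in ferret astrocytes, against 13.1% and 30.1% of all genes. The median log2 difference was -1.39, against -0.35 for all genes. Thbs2, a thrombospondin that binds MMP2 and promotes its uptake by the cell, stood at 0.045 and 0.042 FPKM in the ferret, against 46.7 and 48.9 in the mouse (log2 difference -5.55, limma adjusted p = 8.89e-12). It passed the filter through the mouse only, so that a difference was built into its entry. Cst3, a secreted inhibitor of another class, the cysteine proteases, stood at 232 and 239 FPKM against 3723 and 4060, a log2 difference of -4.04. The proprotein convertase Pcsk6 stood at 3.70 and 3.46 FPKM against 15.2 and 15.5, whereas Pcsk7, another convertase, was called higher at 15.8 and 17.7 against 7.585 and 8.002. The log2 difference of Pcsk7 was 1.01, at the edge of a call, and the call was lost without ferret replicate 2 and without mouse replicate 1.

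Of 10 matrix proteins that are substrates of these enzymes, all tested, 2 were called higher and 7 lower in ferret astrocytes. The shares for all genes were 13.1% and 30.1%. The median log2 difference was -1.07, against -0.35 for all genes. With FPKM rescaled or quantile normalized, 3 were called lower, against 21.7% and 20.4% of all genes. Nid1, which links laminin and collagen networks of the basement membrane, had 1.39 and 1.27 FPKM in the ferret, against 73.5 and 68.9 in the mouse (log2 difference -4.95). Fn1, fibronectin, had 57.9 and 50.8 against 379 and 349.5, and Vcan, versican, 5.05 and 5.71 against 21.1 and 20.4. Higher in the ferret were Lamc1, a laminin chain, at 98.5 and 103 against 29.4 and 28.3, and Acan, aggrecan, at 1.37 and 1.23 against 0.00825 and 0.00687. Acan passed the filter through the ferret only. Nid1 and Fn1 are also made by fibroblasts. All 11 fibroblast markers that passed the filter were called lower in ferret astrocytes, 5 of them having passed through the mouse only. The sums of these markers are given with the check of the cells. The part of fibroblasts in the values of Nid1, Fn1 and the other substrates was not tested.

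**Figure D4:**
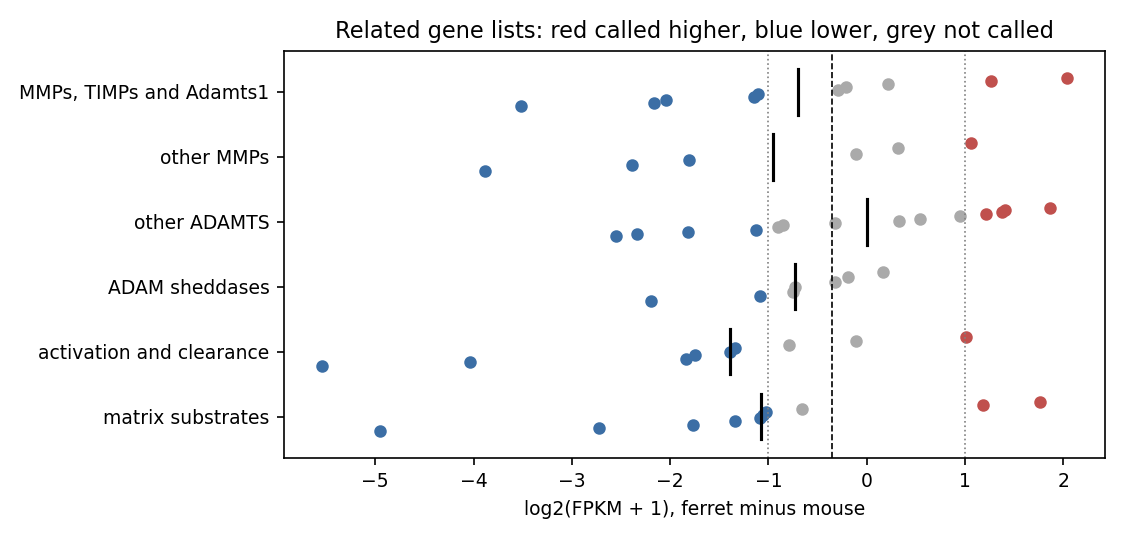
Difference of log2(FPKM + 1), ferret minus mouse, for every tested gene of the set and of 5 related lists, with red points called higher, blue points called lower and grey points not called in ferret astrocytes. Black bars are list medians, the dashed line is the median of all genes (-0.35) and dotted lines mark the size required for a call. On the values as deposited the ADAMTS genes fall on both sides, and each other list holds more genes on the side of lower ferret values.

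The genes most like Mmp2 and Timp4, the 2 ends of the set, were found by the Euclidean distance over the 4 log2(FPKM + 1) values among 10203 other genes. Nearest to Mmp2 were Ptn (distance 0.46), Eif3k (0.46) and S100b (0.58), and nearest to Timp4 were Mro (0.16), Cd14 (0.18) and Wnt7a (0.27). The distance describes likeness in level over 4 libraries.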

How the data were processed

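The 4 libraries were polyA-selected with a stranded kit. Per the labels and the paper's methods, the authors aligned reads with STAR (2.7.0f) to the Ensembl genome of each species (GRCm38 for the mouse) and deposited the FPKM that Cufflinks (2.2.1) gave each gene of a library, on a separate annotation for each species, so gene models of unequal length enter the values. The study also gives read counts, which were not used here. The FPKM files hold none, and their low values allowed only the ratio of depths within a species, so no depth is given. Symbols were matched in upper case, and a symbol with several values took the one with the highest mean. Species were compared with limma (3.58.1, R 4.3.3, trended empirical Bayes) on log2(FPKM + 1), keeping genes whose mean reached 1 FPKM in either species, after a test on simulated data. Joins and figures used pandas 2.3.3 and matplotlib 3.10.9. Alternatives were a pseudocount of 0.1, no filter, 2 scalings, the replicate number as a block, summed values and each library left out. Named are the 10 genes and, per related list, up to 3 called genes in each direction. The genes and lists were chosen with earlier results of these data known. Chchd10 was chosen from the annotation. Coordinates, exons and sequences are from GENCODE M21 on GRCm38, an annotation other than the authors'. A ferret genome and protein sequences were not used here.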

Additional observations from a re-analysis of the deposited data

How the results depend on the processing

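Rescaling FPKM to the mean library sum moved the median log2 difference of all genes from -0.35 to -0.002 and quantile normalization moved it to 0.05. The share of calls that were higher in the ferret went from 30.3% to 47.0% and 50.0%, with 2080 genes called higher after quantile normalization against 1336 as deposited. The set then had 3 genes called lower in place of 5 under either scaling, ADAM sheddases 1 in place of 2 and matrix substrates 3 in place of 7. Under rescaling and quantile normalization Mmp11 was -0.85 and -0.73, Timp2 -0.71 and -0.76, Mmp15 0.072 and 0.14, and Timp3 0.18 and 0.18. With a pseudocount of 0.1, 1 synapsin gene was called lower in place of 0. With each library left out in turn, Mmp11 ranged from -1.33 to -0.95, and the count called higher ranged from 0 to 1 for other MMPs and from 0 to 1 for regulators. The cause of these changes was not tested. The replicate numbers share no source between species, and deviations of same-numbered libraries had a correlation of 0.01 over 10204 genes. With the replicate number as a block, 1342 genes were called higher and 3072 lower, and the set kept counts of 2 and 5. The reads behind the low values of Mmp9 in the mouse and Timp4 in the ferret were not analysed here.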
